A study of Arabidopsis thaliana with 12 samples.

Results

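Phytochrome B and the PHYTOCHROME INTERACTING FACTOR (PIF) proteins control how Arabidopsis seedlings grow in sunlight and in the shade of other plants. PIFs are basic helix-loop-helix (bHLH) transcription factors that promote stem elongation. Light-activated phytochrome B binds them and leads to the destruction of many of them. In shade phytochrome B is less active and the PIFs become more active. They then switch on growth genes together with small helix-loop-helix proteins that hold the PIFs in check. The genes described here are 10 regulators of this pathway, out of 27444 nuclear protein-coding genes. They are PHYB (AT2G18790), PIF1 (AT2G20180), PIF3 (AT1G09530), PIF4 (AT2G43010), PIF5 (AT3G59060), PIF7 (AT5G61270), PIL1 (AT2G46970), PAR1 (AT2G42870), PAR2 (AT3G58850) and HFR1 (AT1G02340). A peak was given to a gene when its summit lay inside the gene or within 2000 bp of it and no other protein-coding gene was nearer. By this rule 47 of the 38038 nuclear peaks in the series belonged to the 10 genes.

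The peaks come from chromatin immunoprecipitation with sequencing (ChIP-seq) of whole Arabidopsis thaliana seedlings, grown for 10 days in long days. All the plants were of the ecotype Landsberg erecta (Ler). In each line the locus of 1 protein was joined at its C-terminal end to a 2xYPet-3xHA tag, in which YPet is a yellow fluorescent protein, and chromatin was recovered through GFP antibody. Of the 6 tagged proteins, 5 were HD-ZIPIII factors (homeodomain leucine-zipper proteins of class III, which act in leaf polarity, meristems and vasculature), namely ATHB8, ICU4, PHB, PHV and REV. The other was TPL (TOPLESS), a co-repressor brought to DNA by partner proteins. Each had 1 peak list made against its own input, so replicate errors cannot be given, no comparison between lists was tested, and binding in a few cells cannot be told apart from weak binding in many. All the lines carry a tag, and a list from untagged plants was not analysed here.

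The lists differ in length and in peak width. They hold between 2790 (PHB) and 12785 (TPL) nuclear peaks, with a median width from 80 bp (ATHB8) to 564 bp (TPL). Read depth is unknown. Fold enrichment is the authors' ratio of immunoprecipitated signal to local background at a peak, and it is read here within a list only, as the value, its rank and its percentile (the share of the list's peaks at or below it). Positions are on TAIR10. Because the gene table used here gives no strand, ends of a gene are named by lower and higher coordinate and not as promoter and 3' end.

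TPL and ICU4 had peaks at most of the 10 genes, PHV and PHB at some, REV at a pair of them and ATHB8 at none. The 10 genes were chosen with earlier results of these data known, so a count above the background is not an independent finding. TPL peaks were assigned to 9 genes, where 34.0% of all nuclear protein-coding genes had one. ICU4 peaks were assigned to 8 genes, where the background was 22.3%. The PHV list held 5 of the 10 (background 7.06%) and the PHB list 4 (background 7.29%). REV had peaks at PIF5 and PAR1, that is at 2 of 10 genes against a background of 5.86%. For ATHB8 the count was 0 of 10 against a background of 3.52%, so an empty column in a set of this size stands near the background. With every list cut to the 2790 peaks of highest significance, the length of the shortest list, TPL had peaks at 6 of the 10 genes (background 8.69%) and ICU4 at 5 (background 7.96%). PHV then had 5 (background 6.90%), PHB 4 (background 7.29%), REV 1 (background 1.97%) and ATHB8 0 (background 1.72%). The nearest ATHB8 summit to any of the 10 genes was 29884 bp away, at PIF5.

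**Figure D1:**
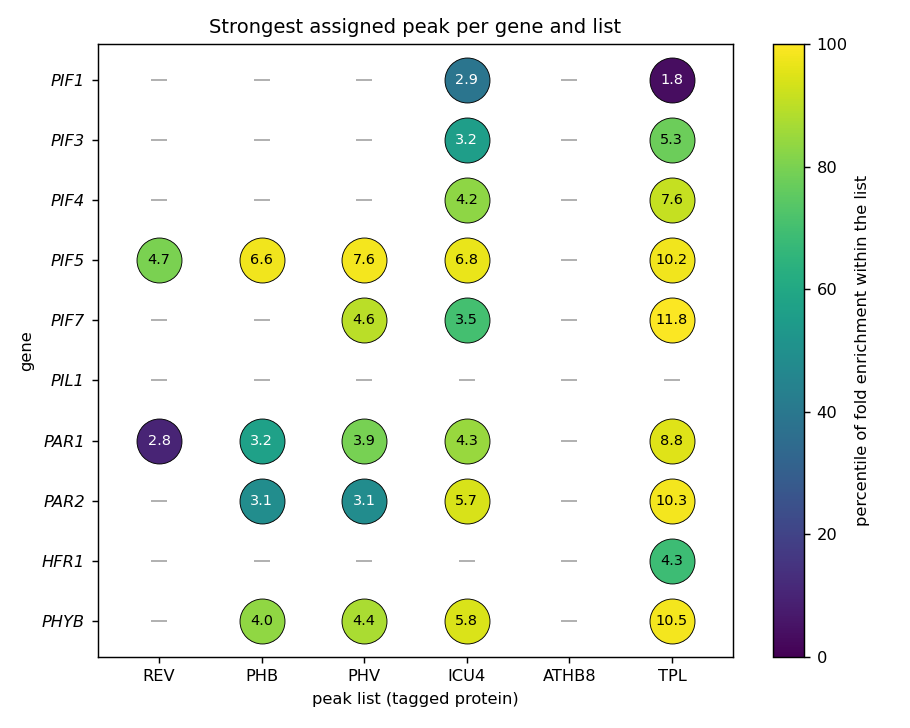
Strongest assigned peak of each gene (rows) in each of the 6 peak lists (columns). The number in a circle is the authors' fold enrichment, the colour its percentile within that list, and a dash means no assigned peak. The TPL and ICU4 columns are nearly full, ATHB8 is empty, and PIF5 and PAR1 have circles in 5 columns each.

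The pattern over lists divided the 10 genes. PIF5 and PAR1 had peaks in 5 lists, PAR2 and PHYB in 4, PIF7 in 3, and PIF1, PIF3 and PIF4 in 2, ICU4 and TPL in each case. HFR1 had a peak in the TPL list alone and PIL1 in none, where 57.2% of all genes had no peak in any list. Peaks in at least 4 lists were thus found at 4 of the 10 genes, where 4.93% of all genes had them. The combination of ICU4 and TPL was found at 8 of the 10, against 16.5% of all genes. Genes differ in how much sequence lies nearest to them. This stretch had a median of 3832 bp for the 10 genes and 3299 bp for all genes. Among the 15626 genes within the range of the 10 genes (2887 to 7733 bp), a background chosen after the values were seen, 40.5% had a TPL peak, 25.5% an ICU4 peak, 8.86% a PHV, 8.77% a PHB, 7.18% a REV and 4.58% an ATHB8 peak. These shares are higher than over all genes, and for every protein except ATHB8 they are below the share of the 10 genes. The part of nearby sequence in the counts for the 10 genes was not tested.

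PHYB encodes the main red and far-red light receptor of green seedlings. Its peaks had their summits at a single narrow site just outside the gene, on the side of lower coordinates. On chromosome 2 the PHV summit lay at 8139591, the TPL summit at 8139597, the ICU4 summit at 8139598 and the PHB summit at 8139612, between 144 and 165 bp from the gene. The 4 summits thus fell within 21 bp, and the TPL and ICU4 summits were 1 bp apart. The TPL peak itself was 1857 bp wide, from 8138402 to 8140258, and reached into the gene. Fold enrichment was 5.82 for ICU4, 4.41 for PHV, 3.99 for PHB and 10.5 for TPL. Within their lists these peaks ranked 516 of 8964, 365 of 2872, 466 of 2790 and 228 of 12785, at percentiles from 83.3 to 98.2. REV had no summit nearer than 78500 bp.

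PIF5, which drives stem elongation in shade, had the most peaks of the 10 genes, 15 of the 47. They lay at 5 separate sites along the gene and its flanks on chromosome 3, when summits up to 100 bp from the next were joined into a site. The strongest site was inside the gene, towards the end of higher coordinate, and held every list but ATHB8. There the REV summit lay at 21830503, PHB at 21830525, PHV at 21830543, ICU4 at 21830546 and TPL at 21830592. The 4 HD-ZIPIII summits fell within 43 bp. Fold enrichment was 7.57 for PHV, ranking 53 of 2872, and 6.61 for PHB, ranking 66 of 2790. ICU4 had 6.81 (rank 304 of 8964), REV 4.65 (rank 1166 of 5814) and TPL 10.2 (rank 273 of 12785). In the REV, PHB, PHV and ICU4 lists these were the strongest peaks assigned to any of the 10 genes.

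The other PIF5 sites were weaker and shared by fewer lists. Outside the gene on the lower side, between 131 and 190 bp away, PHB (3.53), PHV (3.38), ICU4 (4.43) and TPL (3.56) had summits within 59 bp. That site lies in the short stretch between PIF5 and AT3G59050, and the TPL summit was 206 bp from this neighbour against 190 bp from PIF5, so its assignment rests on a small difference in distance. Inside the gene, REV (3.38), PHV (3.25) and ICU4 (3.93) had summits between 21828489 and 21828516, while PHB (3.32) and ICU4 (2.16) had summits at 21829405 and 21829385. No separate TPL summit fell at either of these sites, although a TPL peak from 21827399 to 21829623 covered both. An ICU4 peak of 2.27 had its summit 644 bp beyond the higher end, with no other summit near it, under the broad TPL peak of the strongest site, which ran from 21830126 to 21832630. The weakest ICU4 value at PIF5, 2.16, came with a pileup (coverage at the summit) of 26, close to the pileup of 27 behind a fold enrichment of 3.55 in the same list at PIF7. The ratio of pileup plus 1 to fold enrichment, a measure of the local background, was 12.5 at the PIF5 peak and 7.90 at the PIF7 peak.

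PIF4 is the relative of PIF5 that also drives growth in warmth, and its pattern was different. It had 1 HD-ZIPIII peak, from ICU4, with its summit at 17886379 on chromosome 2, inside the gene near the lower end, and a fold enrichment of 4.18 (rank 1517 of 8964). A TPL summit lay 24 bp away at 17886355, in a peak of 7.64 that ran from 17884699 to 17886880 and ranked 1125 of 12785. The TPL list had 3 more PIF4 peaks without an HD-ZIPIII partner, of which those of 1.69 and 3.29 lay inside the gene and that of 3.30 lay 393 bp beyond its higher end. The nearest PHV, PHB and REV summits were 12364, 20313 and 48962 bp from the gene.

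PIF7, the PIF most closely tied to auxin production in shade, had its strongest TPL peak far from the gene body. At 24642005 on chromosome 5, outside the gene by 1240 bp on the higher side, the TPL fold enrichment was 11.8. This ranked 91 of 12785 and was the strongest TPL peak of the 10 genes. PHV had a summit at 24642029 with 4.62 (rank 300 of 2872), and ICU4 one at 24642001 with 2.66 (rank 7066 of 8964). At this site the PHV peak was thus in the upper part of its list and the ICU4 peak in the lower part. The stronger ICU4 peak at PIF7, 3.55 at 24639275 inside the gene, was the only one of the 31 HD-ZIPIII peaks at the 10 genes that no TPL peak touched. Another TPL peak, of 7.96, had its summit inside the gene at 24640732 with no HD-ZIPIII summit near it.

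PIF1, which restrains seed germination in the dark, and PIF3, which restrains greening and leaf opening in the dark, had the weakest signals of the PIF genes. At PIF1 the ICU4 fold enrichment was 2.91 (percentile 38.8) and the TPL fold enrichment 1.81 (percentile 3.33), with summits inside the gene at 8705723 and 8705639 on chromosome 2. At PIF3 the ICU4 peak had 3.24 (percentile 55.7) at 3076644 on chromosome 1 inside the gene, 21 bp from a TPL summit of 5.33 (percentile 77.7). A further TPL peak of 3.95 lay 112 bp outside PIF3 on the lower side. Neither gene had a REV, PHB or PHV summit nearer than 27849 bp.

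**Figure D2:**
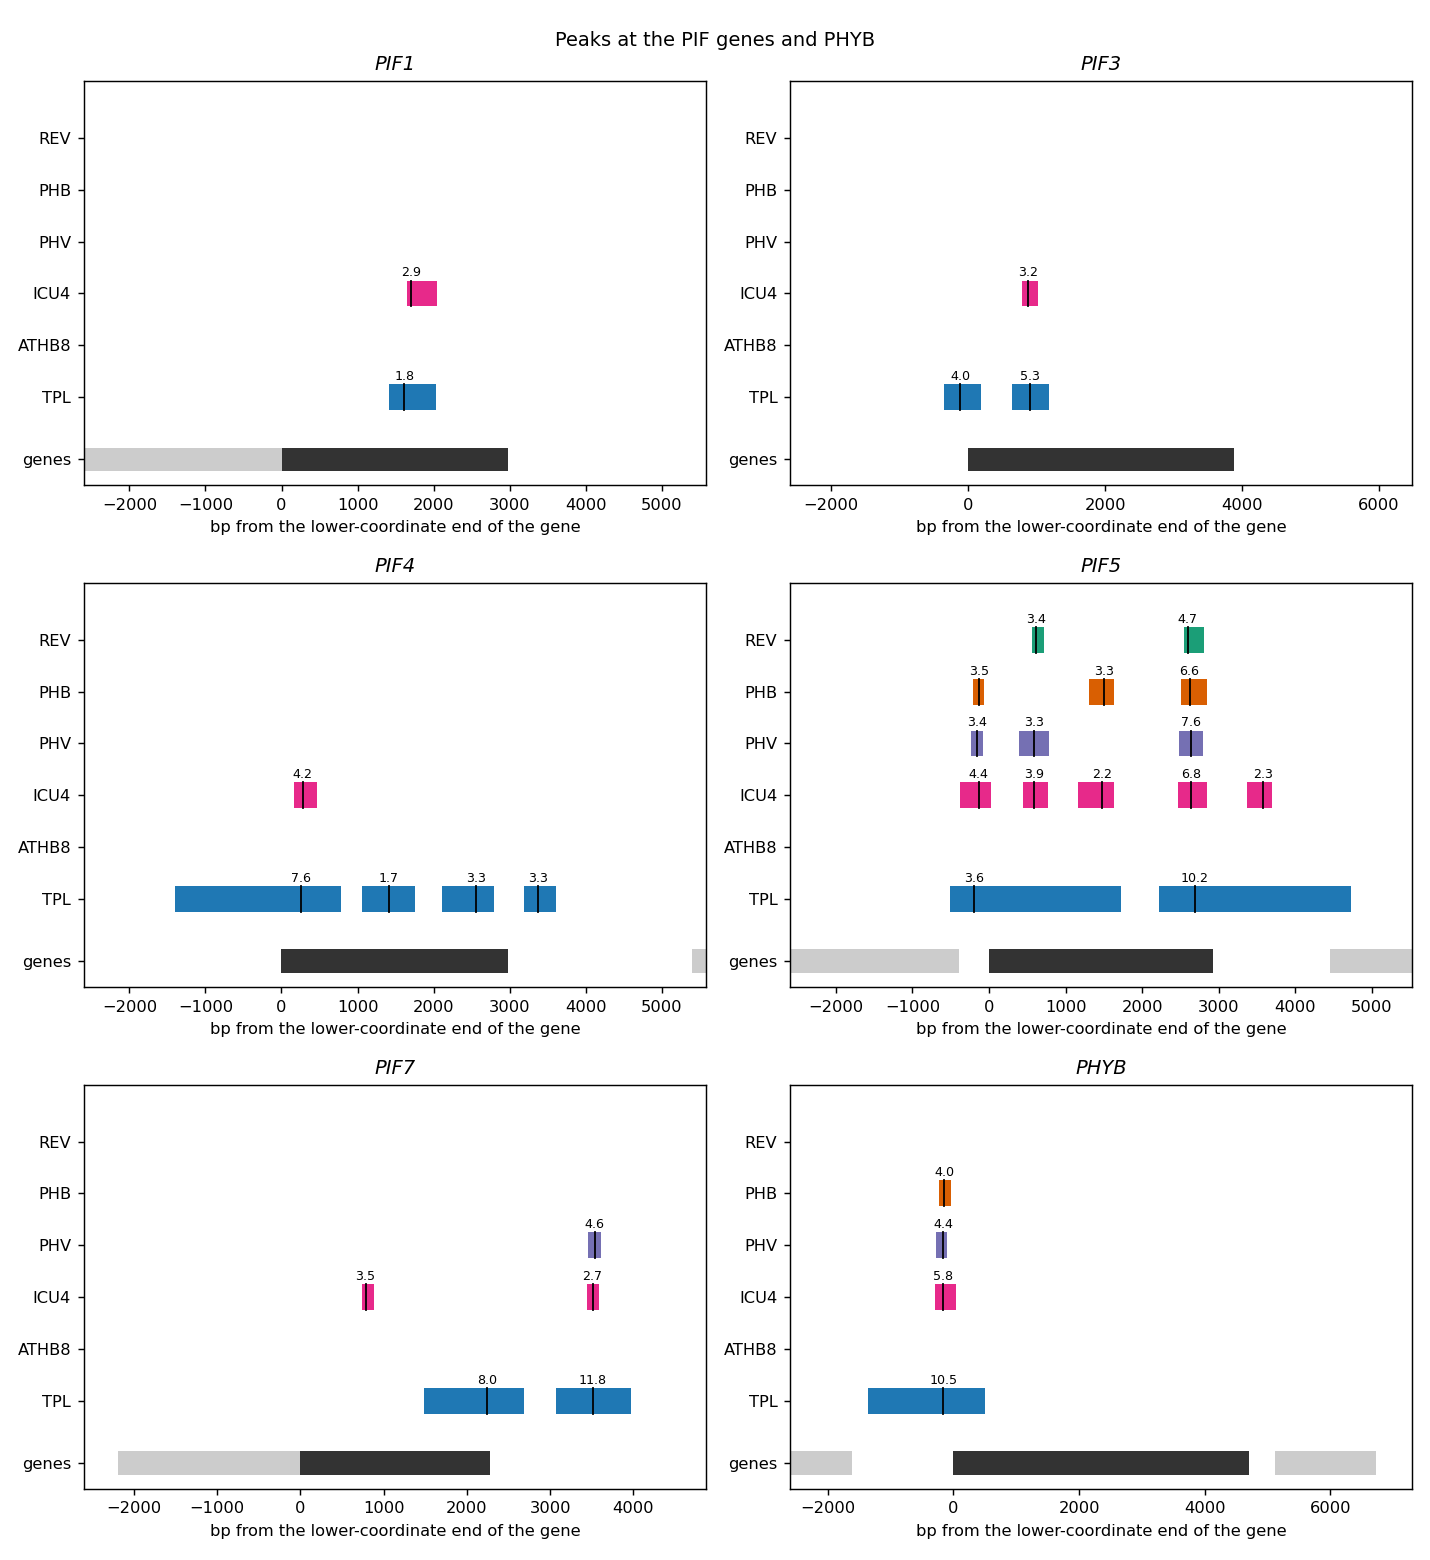
Peaks at 5 PIF genes and PHYB by list, as bars from peak start to end with the summit as a black line and the authors' fold enrichment above. The horizontal axis is the distance in bp from the lower-coordinate end of the gene, the dark bar is the gene and grey bars are neighbouring protein-coding genes. PHYB has 1 site, PIF5 has 5, and PIF1, PIF3 and PIF4 have ICU4 and TPL peaks only.

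PAR1 and PAR2 are closely related helix-loop-helix proteins made in shade that bind PIFs and other bHLH proteins and block their action. Both genes had PHB, PHV, ICU4 and TPL peaks outside the gene on the side of higher coordinates, in a similar range of distance. At PAR1, on chromosome 2, the summits lay 702 bp (PHB, 17838320), 772 bp (TPL, 17838390), 816 bp (ICU4, 17838434) and 917 bp (PHV, 17838535) from the gene. At PAR2, on chromosome 3, they lay 667 bp (PHV, 21761057), 702 bp (PHB, 21761092), 716 bp (ICU4, 21761106) and 885 bp (TPL, 21761275) from the gene. The PHB, PHV and ICU4 summits were spread over 215 bp at PAR1 and over 49 bp at PAR2. The strongest summits of these lists spanned 21 bp at PHYB and at PIF5. Over the 1068 genes with peaks in all of these lists, the median span was 69 bp.

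The strength of the PAR1 and PAR2 peaks differed by list. For ICU4, fold enrichment was 4.31 at PAR1 and 5.70 at PAR2, ranking 1370 and 554 of 8964. For PHV it was 3.90 and 3.09 (percentiles 79.6 and 48.4), and for PHB 3.19 and 3.07 (percentiles 56.8 and 48.7). TPL had 8.82 at PAR1, in a broad peak from 17836393 to 17838942 that covered the gene and the flank, and 10.3 at PAR2 (percentiles 95.3 and 98.1). By fold enrichment, PAR2 was thus above PAR1 for ICU4 and TPL and below it for PHV, with PHB nearly level. By pileup the TPL order was reversed, with 343 at PAR1 and 285 at PAR2. PAR1 also had a weak REV peak inside the gene, of 2.80, which ranked 5231 of 5814. Inside PAR2 there were ICU4 peaks of 3.67 and 4.31 and a TPL peak of 3.55.

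HFR1, an atypical bHLH protein that pairs with PIFs and keeps them from DNA, had a single assigned peak, from TPL, inside the gene at 467802 on chromosome 1 with a fold enrichment of 4.35 (percentile 68.4). Beyond its higher end, however, stood a group of peaks, strong in the TPL and PHV lists, that lay nearer to AT1G02350. Their summits ran from 469330 (REV) over 469357 (ICU4) and 469361 (TPL) to 469382 (PHV), between 1450 and 1502 bp from HFR1 and between 436 and 488 bp from AT1G02350. Fold enrichment there was 11.9 for TPL (rank 82 of 12785) and 6.03 for PHV (rank 111 of 2872). ICU4 had 4.43 (rank 1246 of 8964) and REV 3.04 (rank 4819 of 5814). A weaker pair of summits, of PHV (3.27) and ICU4 (4.28), lay in the same gap at 468920 and 468906, where the distances were nearly even, 1040 and 1026 bp to HFR1 and 898 and 912 bp to AT1G02350.

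PIL1, a PIF-like bHLH gene that is among the most rapidly induced in shade, had no assigned peak in any list. In the gap beside it, however, lay a strong site shared by every list but ATHB8. On chromosome 2 the PHB summit at 19298963, PHV at 19298983, ICU4 at 19298992, REV at 19298999 and TPL at 19299019 stood between 1105 and 1161 bp from PIL1. They were between 473 and 529 bp from ASY3 (AT2G46980), the gene of a meiotic chromosome axis protein, and were assigned to it. Fold enrichment was 13.2 for TPL (rank 25 of 12785), 7.40 for ICU4 (rank 226 of 8964), 5.26 for PHV (rank 168 of 2872), 5.06 for REV (rank 764 of 5814) and 4.92 for PHB (rank 198 of 2790). The TPL, ICU4 and REV values exceeded those of every peak assigned to the 10 genes. Peak position alone does not say whether PIL1 or ASY3, HFR1 or AT1G02350, is the gene the site serves.

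When each peak counted for every protein-coding gene within 2000 bp, all 10 genes had an ICU4 peak (background 36.5%) and a TPL peak (background 52.2%). The REV count then rose from 2 to 4 genes (background 9.75%), by PIL1 and HFR1. PIL1 had peaks in 5 lists and HFR1 in 4, and the genes with at least 4 lists numbered 6 of 10 against 9.02% of all genes. PHV then had 7 genes (background 11.8%) and PHB 5 (background 12.7%), while ATHB8 stayed at 0 of 10 (background 5.48%). The farthest assigned summit was 1264 bp from its gene (PHV at PIF7), so a limit between that distance and 2000 bp gives these 10 genes the same peaks. A limit of 500 bp did not: it left PAR1 in 1 list (REV) and PAR2 in 2 (ICU4 and TPL), and PIF5 and PHYB were then the 2 of 10 genes with peaks in at least 4 lists, against 3.91% of all genes. Where a list had no summit within 2000 bp of a gene, the nearest was 12364 bp away or more.

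**Figure D3:**
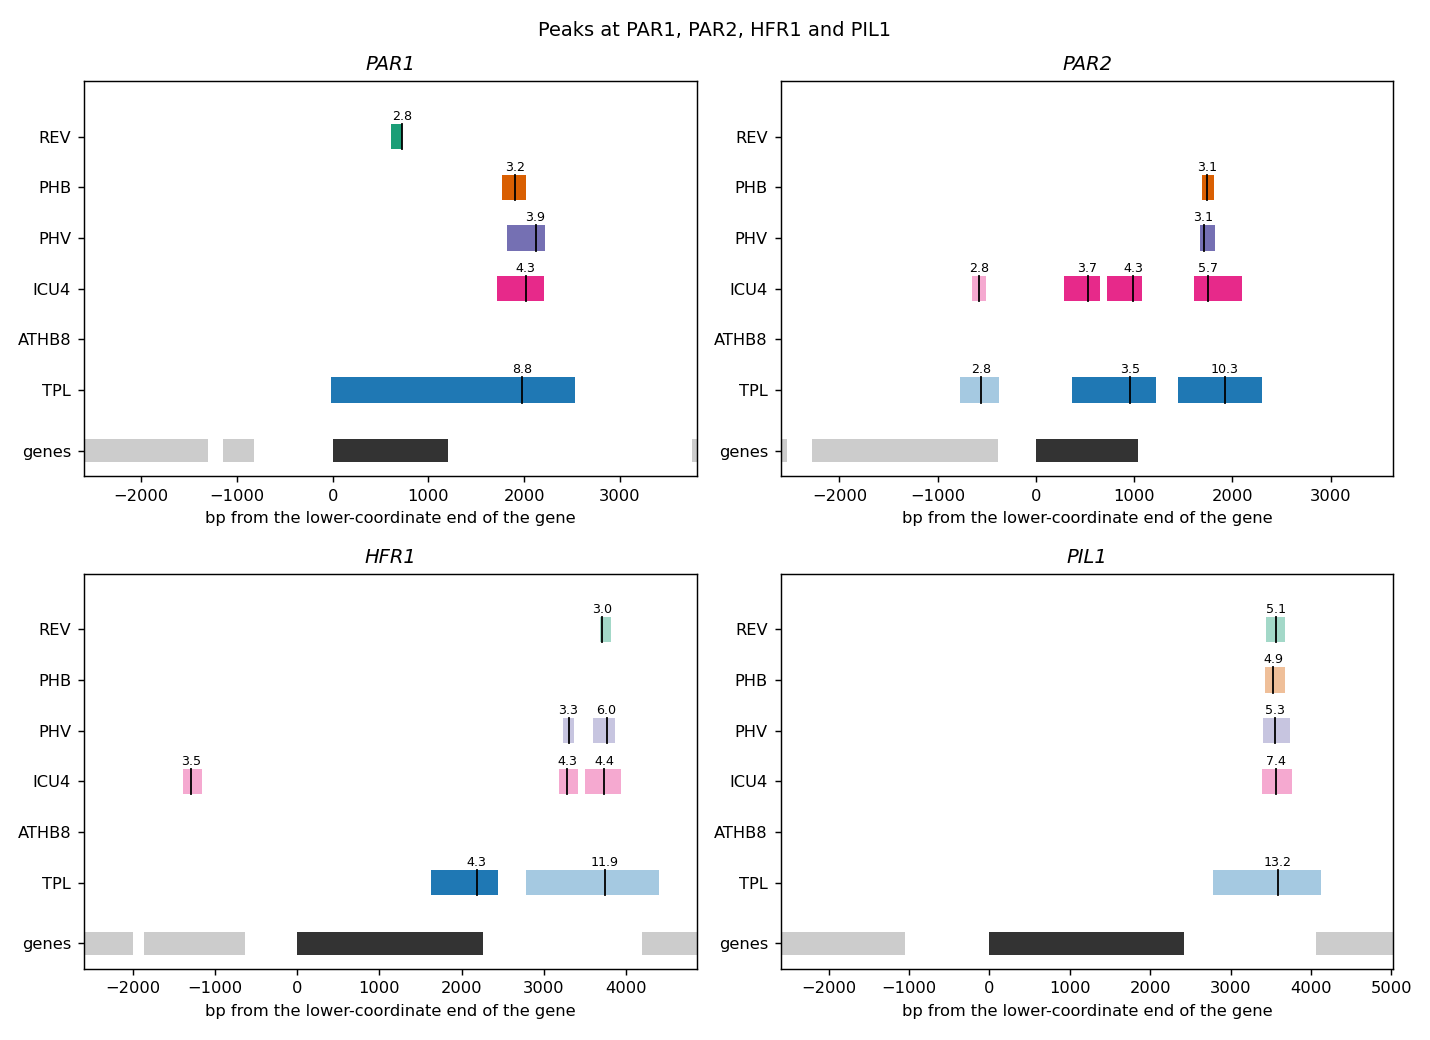
Peaks at PAR1, PAR2, HFR1 and PIL1 by list, drawn as bars with the summit as a black line and the authors' fold enrichment above. The horizontal axis is the distance in bp from the lower-coordinate end of the gene (dark bar), grey bars are neighbouring genes, and pale peaks are nearer to a neighbour. The pale groups beside HFR1 and PIL1 reach TPL fold enrichments of 11.9 and 13.2.

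TPL peaks covered nearly all HD-ZIPIII peaks at these genes. Of the 31 HD-ZIPIII peaks assigned to the 10 genes, 30 shared at least 1 bp with a TPL peak, against 70.1% of the 16882 HD-ZIPIII peaks assigned to any gene. By list the counts were 3 of 3 for REV (70.1% over all genes), 6 of 6 for PHB (81.5%), 7 of 7 for PHV (77.9%) and 14 of 15 for ICU4 (71.2%). Peaks at one gene are not independent, since PIF5 alone gave 13 of the 31. TPL peaks are also wide. When the summits had to lie within 100 bp of each other the count was 18 of 31 (35.0% over all genes), and with lists of equal length it was 15 of 23 (50.8%). At equal length the ICU4 count alone was 5 of 9, no higher than the 58.9% over all genes. Conversely, 10 of the 16 TPL peaks at the 10 genes overlapped an HD-ZIPIII peak, where 41.4% of the TPL peaks assigned to any gene did.

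The strongest ICU4 and TPL summits of a gene lay close together at most of the 8 genes with both. They were 1 bp apart at PHYB, 21 bp at PIF3, 24 bp at PIF4, 44 bp at PAR1, 46 bp at PIF5, 84 bp at PIF1 and 169 bp at PAR2. At PIF7 they were 2730 bp apart, in different parts of the locus. The weaker ICU4 summit of PIF7, at 24642001, did lie beside the strongest TPL summit, at 24642005. Over the 4538 genes with both proteins the median distance between the strongest summits was 96 bp. Of the 24 sites in all, 17 held an HD-ZIPIII summit, and ICU4 was present at 15 of these. The exceptions were the REV peak inside PAR1 and the PHV summit at 17838535 beside PAR1, which fell just beyond the joining distance of 100 bp from the ICU4 summit at 17838434. The ICU4 list also gave 8319 of the 16882 HD-ZIPIII peaks assigned to any gene. The share of sites with ICU4 over all genes was not computed. Of the 31 HD-ZIPIII peaks, 16 had their summit inside a gene, against 67.3% over all genes.

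The other genes of light and shade signalling were examined in 6 lists with 55 genes. In all, 10 of the 55 had no peak in any list, against 57.2% of all genes. TPL had a peak at 44 of the 55, ICU4 at 26, PHV at 13, PHB at 12, REV at 5 and ATHB8 at 2. The shares of all genes to read these and the following counts against are 34.0% for TPL, 22.3% for ICU4, 7.06% for PHV, 7.29% for PHB, 5.86% for REV and 3.52% for ATHB8. Of the 6 other photoreceptor genes, PHYA, PHYC, PHYD, PHYE, CRY1 and CRY2, 3 had a TPL, 2 an ICU4 and 1 a PHV peak, and CRY1, a blue light receptor, was the only one in 3 lists (PHV 2.64, ICU4 3.32, TPL 2.82). PHYB, with 4 lists, thus had more than any of these other photoreceptor genes. Of the 9 genes of light signalling repressors and the evening complex, 6 had a TPL and 4 an ICU4 peak, and none had a peak of another protein.

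Among 9 further genes of light signalling, FHL and HY5 included, 8 had a TPL and 3 an ICU4 peak. FHL, which helps bring phytochrome A into the nucleus, had peaks of PHB (3.19), PHV (3.39), ICU4 (3.93) and TPL (6.86). HY5, a bZIP factor that opposes the PIFs, had PHB (3.36), ICU4 (3.67) and TPL (9.65). Of 4 further PIF-related bHLH genes, all had a TPL peak and 3 an ICU4 peak, and PIF6 (PIL2 in the gene table) was in 4 lists, with PHB 3.46, PHV 3.31, ICU4 5.21 and TPL 11.2. Of 11 genes of helix-loop-helix cofactors, 9 had a TPL, 4 an ICU4, and 3 each a PHB and a PHV peak. These included IBH1, an inhibitor of cell elongation (PHB 3.32, ICU4 3.87), and the brassinosteroid-responsive BEE2 (ICU4 2.93, TPL 7.21) and BEE3 (ICU4 7.33, TPL 6.79).

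Of the 16 shade-induced genes, the longest of the 6 lists, 14 had a TPL, 10 an ICU4, 7 a PHV, 6 a PHB, 5 a REV and 2 an ATHB8 peak. The genes with a REV peak were the 5 HD-ZIPII genes of that list, HAT1, HAT2, HAT3, ATHB2 and ATHB4, which encode homeodomain factors of the shade response. In the ICU4 list all 5 of them, HAT1 (12.2), HAT2 (10.9), ATHB4 (9.37), HAT3 (8.61) and ATHB2 (8.23), exceeded PIF5, the highest of the 10 regulators at 6.81. So did the auxin-response gene IAA19 (6.99) of the same list, and BEE3. In the TPL list ATHB4 (12.8) and the helix-loop-helix cofactor gene PRE1 (12.4) were above PIF7, the highest of the 10 regulators at 11.8. HAT1 (11.4), PKS2 (11.3) and PIF6 (11.2) lay between PIF7 and PHYB (10.5). HAT2 (8.16), ATHB2 (7.79) and HAT3 (5.87) were below PIF5 (10.2) and PAR1 (8.82). No test compared these values.

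A set of photosynthesis genes had peaks at least as often in every list. Of 21 light-harvesting and RuBisCO small-subunit genes, taken as a control, 19 had a TPL, 18 an ICU4, 14 a PHV, 15 a PHB, 14 a REV and 13 an ATHB8 peak, and 15 were in at least 4 lists. The RuBisCO genes of the control were uneven, with RBCS3B in 5 lists, RBCS1A and RBCS2B in 2 each and RBCS1B in 1. Transcript levels were not measured here. The part of transcription or open chromatin in the counts for the 10 regulators was not tested. The 10 regulators differed from this control in the lists they filled, with 0 of 10 for ATHB8 and 2 of 10 for REV beside 13 and 14 of 21, a difference that was likewise not tested.

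**Figure D4:**
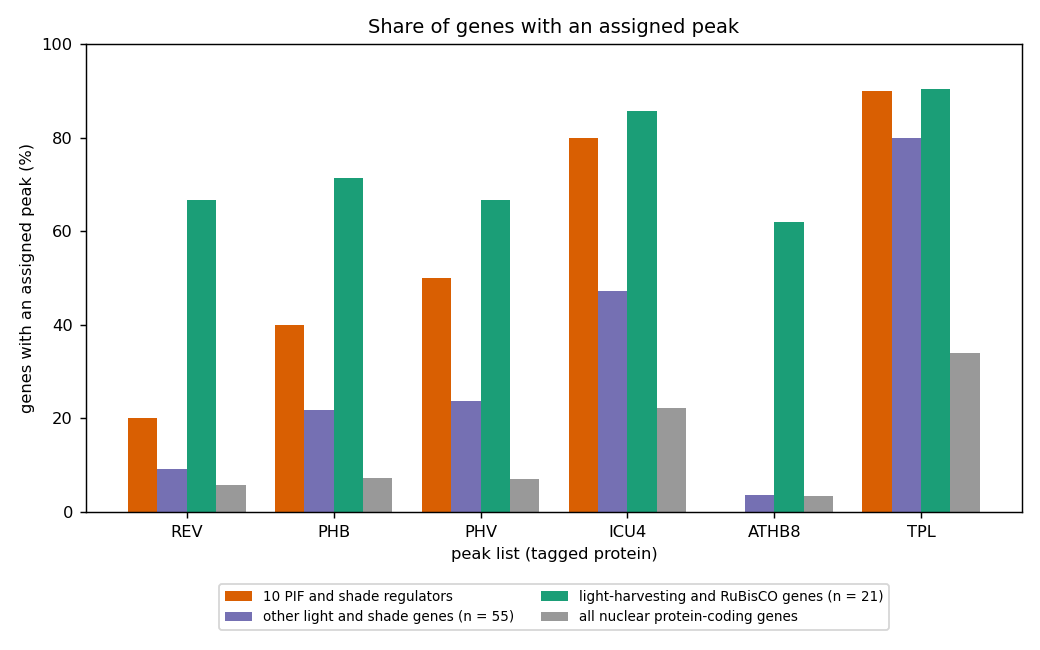
Percentage of genes with an assigned peak in each of the 6 lists, for the 10 regulators, 55 other genes of light and shade signalling, 21 light-harvesting and RuBisCO small-subunit genes, and all 27444 nuclear protein-coding genes. Bars start at 0. The 10 regulators and the control are close for TPL (9 of 10 and 19 of 21) and apart for ATHB8 (0 of 10 and 13 of 21).

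Some genes outside the pathway had nearly the same profile over lists as the 4 regulators held in at least 4 lists. Likeness was measured as the mean absolute difference in within-list percentile of the strongest peak, among genes with peaks in exactly the same lists. For PIF5, with 410 such genes and 5 lists, the closest were AT5G23280 (difference of 1.86 percentile points) and HB5 (2.03), a homeodomain leucine-zipper gene of another class. For PAR1 they were AT1G66940 (3.15) and CRF4 (4.43), a cytokinin response factor gene. PHYB, with 334 such genes and 4 lists, was closest to RTFL21 (2.13) and MGP2 (3.11), and PAR2 to AT1G17940 (3.96) and ATXRCC1 (5.52).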

How the data were processed

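Per the submitters' processing notes, the authors used Bowtie2 and MACS2 with the TAIR10 genome (versions and settings: not given in the sources used here). The series text speaks of duplicates per genotype, and no source used here says whether they were pooled before peak calling. Per the file headers, each deposited peak has a start, end, length and summit. The pileup deposited by the authors is coverage (a signal) where the summit lies, and its scale in reads is unknown. Per the file headers and values, p-values and q-values are on the −log10 scale. Fold enrichment was deposited by the authors as a linear ratio over the local background. In every nuclear row the length was end minus start plus 1, so both ends belong to the peak. Positions were treated as 1-based. The 6 input samples were not used here. Organelle peaks (77 in the ICU4 list, 1 in the REV list) were left out.

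Gene names and neighbours came from the NCBI RefSeq table of assembly TAIR10.1, in which all 86 genes of the member and other lists were matched; it gives neither strand, exons nor sequence, so a planned promoter motif search was not run and no sequence is shown. A summit at the same distance from several genes counted for each. Peaks overlapped when they shared 1 bp. The members and gene lists were chosen with earlier results of these data known, and with 1 list per protein no test was made. Besides the members, the text names up to 4 genes of each list with peaks in at least 3 of the 6 peak lists. They were taken by number of lists and then by ICU4 and TPL fold enrichment. ATHB2, IAA19, PRE1, PKS2 and the RBCS genes were added after their values were seen. The text also names the 2 genes most alike to each member held in at least 4 lists. The assignment was tested on simulated positions. Alternatives were distance limits of 1000 and 500 bp, every gene within 2000 bp, the peak interval, the stronger part of each list (fold enrichment at or above its median), lists of equal length (the 2790 peaks of highest −log10 q), and stricter overlap. Calculations used Python 3.11.15, pandas 2.3.3 and numpy 2.4.6.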

Additional observations from a re-analysis of the deposited data

How the results depend on the processing

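Counts over the 10 genes depended most on the length of the lists. With lists of equal length, ICU4 was assigned to 5 genes by 9 peaks (background 7.96%), REV to 1 gene by 1 peak (background 1.97%) and TPL to 6 genes by 7 peaks (background 8.69%). TPL then overlapped 5 of 9 ICU4 peaks (58.9% of those at any gene, so no longer above the background), 1 of 1 REV peak (43.3%) and 15 of 23 HD-ZIPIII peaks in all (50.8%). In the stronger part of each list REV held 1 gene by 1 peak (background 2.16%), and TPL overlapped that 1 peak (54.8%). Within 500 bp, PHB was left with 2 genes (background 6.30%), since its PAR1 and PAR2 peaks lie farther out, and PHV with 2 genes and 4 peaks (background 5.77%), since its PAR1, PAR2 and PIF7 peaks do. With every gene within 2000 bp, REV had 4 genes and 5 peaks (background 9.75%). By summits within 100 bp, TPL met 9 of 15 ICU4 peaks (36.4%), 4 of 7 PHV (44.6%), 1 of 3 REV (27.9%, near the background) and 18 of 31 HD-ZIPIII peaks in all (35.0%). With a limit of 1000 bp, with the peak interval in place of the summit, and with 50% overlap, every count stayed within 1.5 times its reported value. PIF1 and PIF3 had no peak left with lists of equal length, nor had HFR1. No paired analysis was possible because each protein had 1 list. Read depth is unknown, so a missing peak does not show missing binding.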

Other observations

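Several folds at these genes are the same number, and the columns show where this comes from. The ICU4 fold enrichment was 4.31 both at PAR1 and inside PAR2, with a pileup of 33 at each. The ratio of pileup plus 1 to fold enrichment took its lowest value in the ICU4 list, 7.90, to within 0.5% at 62.2% of the nuclear peaks and at 10 of the 15 ICU4 peaks of the 10 genes. At those peaks the fold enrichment is the pileup on another scale. The ratio was higher, 10.6, at the strongest PIF5 site, where a pileup of 71 gave 6.81, whereas at PHYB a pileup of 45 with the lowest ratio gave 5.82. By pileup, then, the PIF5 peak stood further above the PHYB peak than by fold enrichment. In the TPL list none of the 16 peaks of these genes had the lowest ratio (11.1% of all TPL peaks did), and the same held for the 3 REV peaks (59.3% of all REV peaks did). For PHV the count was 3 of 7 (29.0%) and for PHB 1 of 6 (27.8%).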
